A study of Mus musculus with 36 samples.

Results

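The transcripts of the core pluripotency factors Pou5f1, Sox2 and Nanog were followed over differentiation of Xmas mouse embryonic stem cells (mESCs). The members were taken by gene symbol, each stood on 1 line of the expression table, and they were 3 of the 25965 genes in it. All 3 were among the 14612 genes tested, which had at least 1 read per 1000000 reads (RPM) in at least 4 libraries. Xmas mESCs are female C57/Bl6 lines in which Hprt carries a GFP reporter on one X and an mCherry reporter on the second X. The lines X14 and X18 were expanded in medium with inhibitors of MEK and GSK3 (2i) and LIF, and were then weaned in daily steps of 25% into serum medium without LIF. RNA was harvested daily from day 0 to day 8, and 4 libraries a day gave 36 in all. On every day replicate 1 was X14 double, replicate 2 X14 single, replicate 3 X18 double and replicate 4 X18 single. The labels do not define double and single, which serve here as names of libraries only. Each line is 1 derivation, and the libraries of a line and label on successive days are not independent of each other.

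OCT4 (encoded by Pou5f1), SOX2 and NANOG are transcription factors that bind together at enhancers of pluripotent cells, including those of their own genes. OCT4 has a POU domain that reads an octamer, SOX2 has an HMG box, and OCT4 and SOX2 often sit side by side on a composite element. NANOG is a homeodomain protein that stabilizes the naive state, is expressed unevenly among cells, and is known to fall early when naive cells leave that state. OCT4 and SOX2 are also used by formative and primed cells, and SOX2 by neural progenitors.

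The sequences just upstream of the annotated starts are shown and were searched for the composite element. Enhancers further away were not searched. They are the 250 bases before the start of each gene in RefSeq (GRCm38.p6), all on the plus strand and written 5′ to 3′. Capitals mark the POU motif TTTGCAT or its reverse complement ATGCAAA, and the SOX motif ACAATG or its reverse complement CATTGT. The POU motif is only part of the octamer, and the whole octamer was not searched for. The window of Pou5f1 is chr17:35505782-35506031, that of Sox2 is chr3:34649745-34649994, and that of Nanog is chr6:122707239-122707488.
Pou5f1: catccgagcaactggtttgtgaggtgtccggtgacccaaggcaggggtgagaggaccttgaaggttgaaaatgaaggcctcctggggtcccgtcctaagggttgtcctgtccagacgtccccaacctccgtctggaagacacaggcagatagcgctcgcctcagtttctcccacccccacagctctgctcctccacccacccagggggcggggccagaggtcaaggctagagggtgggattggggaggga
Sox2: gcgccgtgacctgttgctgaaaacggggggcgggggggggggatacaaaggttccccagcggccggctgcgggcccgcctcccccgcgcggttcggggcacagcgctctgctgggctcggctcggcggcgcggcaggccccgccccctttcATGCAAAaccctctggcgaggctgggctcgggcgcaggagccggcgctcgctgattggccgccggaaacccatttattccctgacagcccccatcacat
Nanog: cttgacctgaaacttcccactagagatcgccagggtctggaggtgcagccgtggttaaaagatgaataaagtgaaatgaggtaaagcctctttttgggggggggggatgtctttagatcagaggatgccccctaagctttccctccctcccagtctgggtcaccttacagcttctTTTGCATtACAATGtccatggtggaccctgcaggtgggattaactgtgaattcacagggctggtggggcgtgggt
The Nanog window held TTTGCAT from -75 to -69 and ACAATG from -67 to -62 relative to the start. This is the composite order of POU motif, 1 base of any kind and SOX motif. The Sox2 window held ATGCAAA from -99 to -93, and the first Pou5f1 window held neither motif. A second Pou5f1 start in the annotation had ACAATG from -158 to -153, and a second Nanog start gave an overlapping window with the same composite match. Over 32851 such windows of 27025 genes, searched on both strands, 4.12% held the POU motif and 10.7% the SOX motif. Exact composite matches stood in 2 windows (0.00609%), both of Nanog. These matches are letters in a window, and binding was not measured.

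Reads in genes numbered 612740 to 2445826 per library (median 1297944.5). Pou5f1 (chr17:35506037-35510776, plus strand, 2256 bases of exon, mm10) had 159 to 2990 reads per library. Sox2 (chr3:34650005-34652461, plus strand, 2457 bases) had 39 to 1476 reads and Nanog (chr6:122707489-122714633, plus strand, 2242 bases) 57 to 4893 reads. At the lowest of these, counting error alone is 7.93%, 16.01% and 13.2% of the value. Sox2 lies inside the non-coding gene Sox2ot, which had 0 to 4 reads per library. The antisense gene Gm19553 lies inside Pou5f1, its reads ran from 27 to 594, and since the strand of counting is not stated its reads and those of Pou5f1 cannot be told apart. Levels are given in RPKM, RPM per kilobase of exon.

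In the level of X-linked genes 1 pair of libraries went against the other pairs. For each library the median log2 change from the day 0 mean was taken over 569 X-linked genes, minus that over 14042 autosomal genes. This balance was higher in the double library in 17 of 18 pairs of a day and line, by 0.19 to 1.17. On day 0 of X14 it was lower in the library labelled double, by a difference of -1.29. Both libraries belong to day 0 under either order, so the day means and the fit by day without a block are the same under both. Counts of same-numbered pairs with day 0, the replicate block, the fits without 1 replicate and the crossing days do use the order as labelled. Comparisons between labels are given with and without day 0.

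Markers of the naive state fell and those of formative and primed cells rose over the course. All 6 naive markers (Zfp42, Esrrb, Tfcp2l1, Klf4, Dppa5a and Dppa3) were called lower on day 4 and on day 8, and their summed level fell from 3234 to 4708 RPM on day 0 to 143 to 273 RPM on day 8. Over all genes tested 12.2% were called higher and 6.4% lower on day 4, and 23.9% higher and 11.1% lower on day 8. Of the 5 formative and primed markers, 4 were called higher on both days, and their summed level peaked on day 4 at 1655 to 3423 RPM. On day 8 trophoblast markers summed to 269 to 573 RPM (3.08 to 9.39 RPM on day 0) with 3 of 4 tested called higher, and mesoderm markers to 91.4 to 265 RPM with 2 of 4 called higher. Fibroblast markers summed to 41.6 to 88.4 RPM with 3 of 4 called higher, and endoderm markers to 2.61 to 27.7 RPM with 1 of 4 called higher, which is near the share of all genes. Of the neural progenitor markers, Zic1 and Neurog2 had no read on days 0, 4 or 8, and of the 4 tested 1 was called higher and 1 lower on day 8. Of 7 germ cell markers 1 was called higher and 4 lower on day 8. The part of these cells in the member levels was not tested.

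Pou5f1, whose dosage sets the fate of mESCs, held its level until day 4 and then declined. On day 0 its level was 362, 572, 668 and 565 RPKM in replicates 1 to 4, and on day 4 it was 522, 463, 578 and 575 RPKM. In between it was 589, 434, 679 and 689 RPKM on day 1, 499, 450.0, 633 and 606 RPKM on day 2 and 572, 530.2, 603 and 587 RPKM on day 3. Means on days 0 to 4 lay between 534 and 598 RPKM, and neighbouring days in the order of these means overlapped. On day 5 the replicates stood at 578, 373, 370.4 and 309 RPKM, so that X14 double stood where it had on day 3 and the other 3 were below every library of day 4. They stood at 232, 389, 299 and 298 RPKM on day 6, 114, 176, 184 and 194 RPKM on day 7 and 36.6, 102, 72.5 and 163 RPKM on day 8. Days 6 and 7 did not overlap, and every library of days 7 and 8 lay below every library of day 0. In bulk RNA, fewer cells that express a gene and less RNA per cell cannot be told apart, here and for the other members.

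Sox2, the HMG-box partner of OCT4, held its level until day 3 and had dropped by day 5. It stood at 155, 215, 102 and 92.4 RPKM on day 0, and at 226, 168, 216 and 161 RPKM on day 2, the day with the highest mean (193 ± 32.8 RPKM, SD, n = 4). On days 1 and 3 it was 171, 163, 170.1 and 124 RPKM and 174, 165, 161 and 147 RPKM. All 4 cultures were higher on day 2 than on day 1, and on day 0 the X14 libraries lay above those of X18. It was 123, 88.5, 119 and 67.1 RPKM on day 4 and 31.2, 33.5, 47.8 and 29.6 RPKM on day 5. The libraries of day 4 lay above all those of days 5 to 8, which overlapped with their neighbours in order. Levels were 57.5, 25.1, 54.0 and 32.8 RPKM on day 6, 38.0, 26.3, 26.2 and 41.7 RPKM on day 7, and 16.5, 26.3, 13.8 and 22.3 RPKM on day 8. From day 5 to day 6 the level was higher in 3 of 4 cultures, and no step after day 5 was called.

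Nanog, the factor most closely tied to the naive state, was the first to be called lower, and then partly came back. It stood at 567, 964, 1051 and 765 RPKM on day 0, 1318, 634, 1033 and 717 RPKM on day 1 and 822, 400.1, 736 and 481 RPKM on day 2. On day 3 it was 561, 182, 597 and 209 RPKM, with both single libraries below both double ones. On day 4 it was 87.5, 16.4, 102 and 25.8 RPKM, below every earlier library. Day 5 had 70.7, 47.3, 54.6 and 35.96 RPKM and day 6 had 155, 134, 165 and 153 RPKM. All 4 libraries of day 6 lay above all those of days 4 and 5, at 152 ± 12.9 RPKM (SD, n = 4) against 52.2 ± 14.6 RPKM on day 5. Day 7 had 65.5, 117, 68.8 and 120.2 RPKM, and day 8 had 32.7, 90.2, 31.4 and 118 RPKM. On both of these days the single libraries lay above the double ones.

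The spread between the 4 libraries of a day was itself uneven. As the SD of the log2 level it was 0.08 for Pou5f1 and 0.10 for Sox2 on day 3, when Nanog had 0.91. Nanog had its widest spread on day 4 (1.30) and its narrowest on day 6 (0.13). Pou5f1 had its widest on day 8 (0.91), when Nanog had 0.99 and Sox2 0.42. The Nanog library with the fewest reads, at 57 in X14 single on day 4, had a counting error of at least 13.2%.

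**Figure D1:**
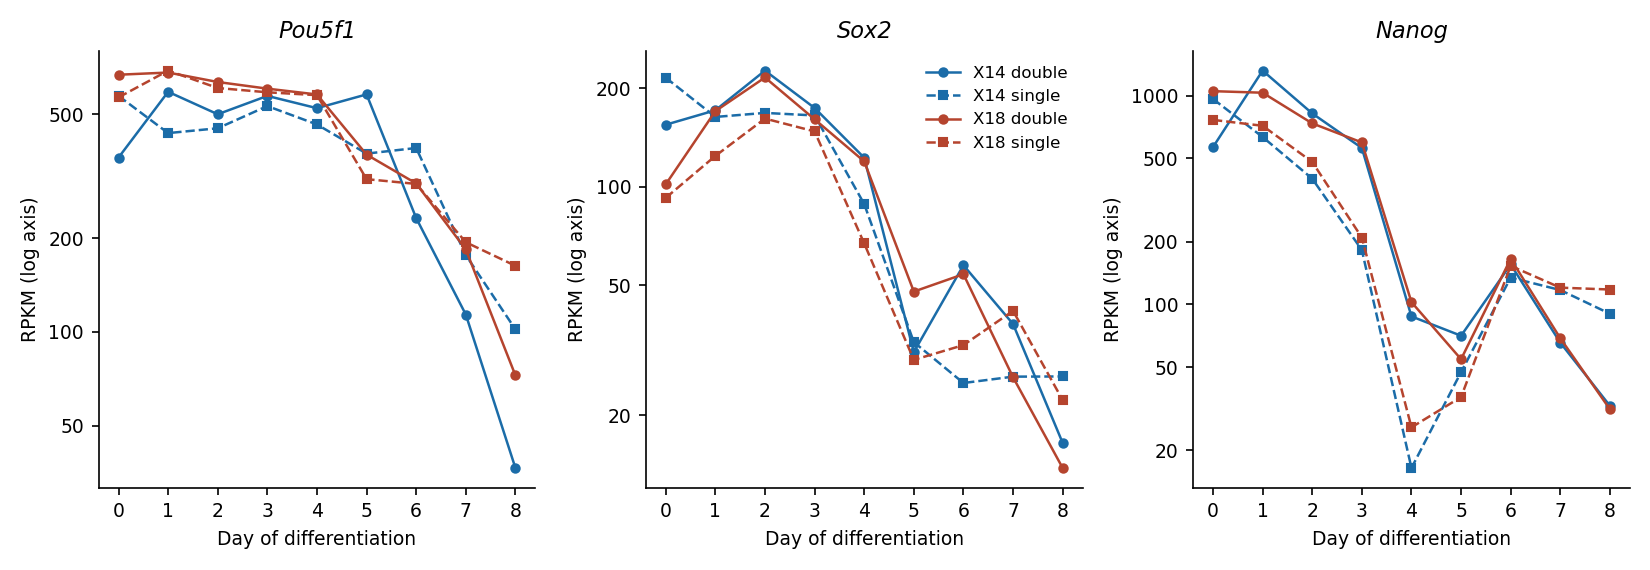
Level of each gene in RPKM (log axis) against day of differentiation, 1 point per library, with blue for line X14, red for X18, solid lines and circles for libraries labelled double and dashed lines and squares for single. Pou5f1 declined after day 4 and Sox2 dropped between days 4 and 5. Nanog had fallen to 16.4 to 102 RPKM on day 4, with the single libraries below the double ones, and rose to 134 to 165 RPKM on day 6. On day 8 the double libraries lay below the single ones for each gene.

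The days on which the members changed were tested with limma in 1 fit over all 36 libraries, and a gene was called at a Benjamini-Hochberg adjusted p under 0.05 over 14612 genes and a log2 fold change of at least 1 either way. The p-values measure the spread between libraries of a day, which differ in line and label, and that spread may in part be technical. For Nanog on day 4 it held the label differences of 2.41 log2 units in X14 and 1.99 in X18. No member was called against day 0 on days 1, 2 or 3, when 0.0684%, 2.96% and 8.89% of genes were called. Nanog alone was called on day 4 (18.6% of genes), Nanog and Sox2 on day 5 (26.8%) and day 6 (33.4%), and all 3 on day 7 (35.4%) and day 8 (35.0%). The median gene had a log2 change of 0.12 on day 4 and 0.23 on day 8, against which the members' changes are to be read.

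Nanog was 1.28 log2 units below day 0 on day 3, lower in 4 of 4 same-numbered pairs, which missed the threshold (log2 change -1.28, SE 0.46, limma adjusted p = 0.0588). With replicate number as a block the adjusted p was 0.0463, and without replicate 1 (X14 double, whose day 0 library is one of the pair named above) the change was -1.70 with an adjusted p of 0.0139. Over all alternatives this adjusted p ran from 0.0139 to 0.289. On day 4 Nanog was 18.4-fold lower (log2 change -4.20, SE 0.46, adjusted p = 1.8e-08) and on day 8 14.2-fold lower (-3.82, adjusted p = 2.9e-08). Sox2 on day 4 was at -0.46 (adjusted p = 0.198). It was 3.81-fold lower on day 5 (log2 change -1.93, SE 0.26, adjusted p = 5.9e-07) and 6.96-fold lower on day 8 (-2.80, adjusted p = 1.7e-10). Pou5f1 on day 4 was at 0.01 with a 95% interval of -0.54 to 0.55. On day 6 it passed the adjusted p but not the fold limit (-0.82, adjusted p = 0.0170), and it was 3.24-fold lower on day 7 (-1.69, SE 0.28, adjusted p = 8.3e-06) and 6.49-fold lower on day 8 (-2.70, adjusted p = 1.5e-09). By day 8 the changes of Pou5f1 and Sox2 differed by less than their errors.

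**Figure D2:**
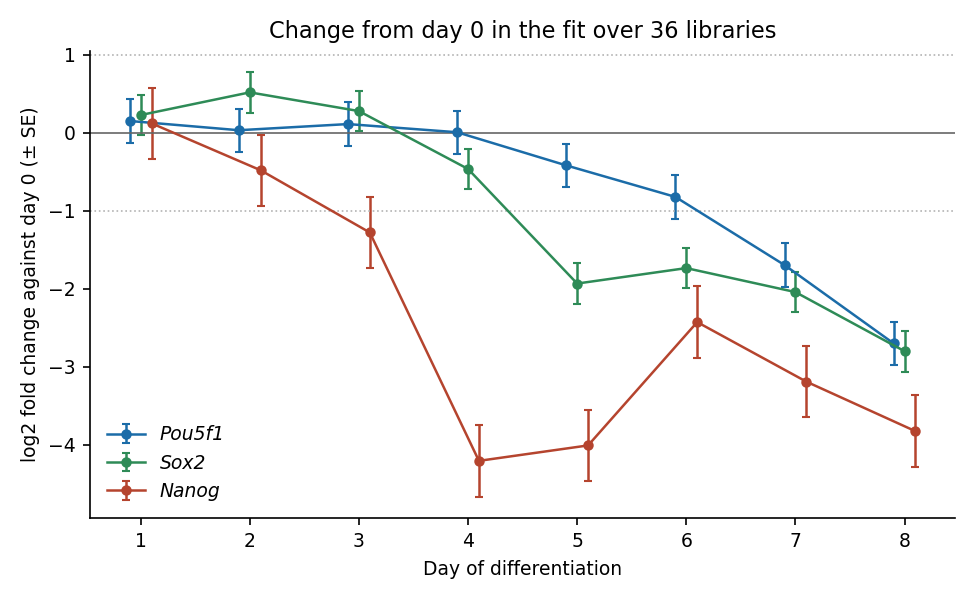
Log2 fold change of each gene against day 0 on days 1 to 8 from the limma fit (points, with bars of 1 SE), with dotted lines at the fold limit of 1 either way. Nanog was at -4.20 on day 4, when Sox2 was at -0.46 and Pou5f1 at 0.01, and the 3 genes lay between -3.82 and -2.70 on day 8.

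Between consecutive days, each member had its own steps. Nanog fell 7.61-fold from day 3 to day 4 (log2 change -2.93, SE 0.46, adjusted p = 5.7e-05, 4 of 4 pairs), a step at which 5.03% of genes were called. Sox2 fell 2.77-fold from day 4 to day 5 (-1.47, SE 0.26, adjusted p = 1.8e-04, 4 of 4 pairs), a step at which 10.6% of genes were called. Nanog rose 2.99-fold from day 5 to day 6 in 4 of 4 pairs (1.58, SE 0.46, adjusted p = 0.0183), a step at which 9.72% of genes were called. This rise missed the threshold without replicate 3 (1.58, adjusted p = 0.0586) and without replicate 4 (1.41, adjusted p = 0.0991), and over all alternatives its adjusted p ran from 0.00105 to 0.0991. No step of Pou5f1 was called, its largest being from day 7 to day 8 (-1.005, adjusted p = 0.106). After quantile normalization this step was -1.18 with an adjusted p of 0.00475, and over its alternatives the adjusted p ran from 0.00475 to 0.769.

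The order of the declines was the same in each culture. The day at which a gene had fallen by 1 log2 unit from its own mean of days 0 and 1, by interpolation between days, was 2.03 to 3.14 for Nanog, 3.91 to 4.65 for Sox2 and 4.98 to 6.56 for Pou5f1. The ranges of the 3 genes did not overlap. Within Nanog the single cultures crossed at 2.03 (X14) and 2.31 (X18) and the double cultures at 3.14 and 3.08. Against day 1 alone, a reference chosen after seeing the data that leaves out day 0, the days were 2.30 to 3.08 for Nanog, 4.08 to 4.37 for Sox2 and 4.82 to 6.74 for Pou5f1, and the single culture of Nanog still crossed first in both lines (2.30 and 2.35 against 2.58 and 3.08). Within Pou5f1 both X14 cultures crossed after both X18 cultures, at 6.005 (double) and 6.56 (single) against 5.45 and 4.98. Against day 1 alone this order held, at 5.74 and 6.74 against 5.41 and 4.82. X14 double then lay nearer to X18 double than to X14 single. The lowest level came on day 8 in all 4 cultures for Pou5f1, and on day 4 for Nanog in both single cultures.

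Because the factors act as partners, their proportions within a library were compared per exon length, which does not depend on how libraries are scaled. Nanog was at 1.54 times the level of Pou5f1 on day 0 (range 1.35 to 1.69), at 0.0830 on day 4 (0.0355 to 0.177) and at 0.705 on day 8 (0.434 to 0.892). On days 3 to 8 every library lay below every library of day 0. Sox2 was at 0.251 of Pou5f1 on day 0, at 0.0879 on day 5 and at 0.235 on day 8. On day 5 this ratio was below that of every day 0 library, and on day 8 it was back among them. Nanog stood at 6.12 times Sox2 on day 0, at 0.457 on day 4 and at 3.01 on day 8. It was below Sox2 in each library of day 4, with ratios of 0.186 to 0.858, and in no library of any other day. With an exact permutation test (two-sided, 4 libraries against 4), 10 of these 24 comparisons with day 0 reached the smallest possible p of 0.0286, which became 0.0686 after adjustment over the 24, so none passed 0.05.

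**Figure D3:**
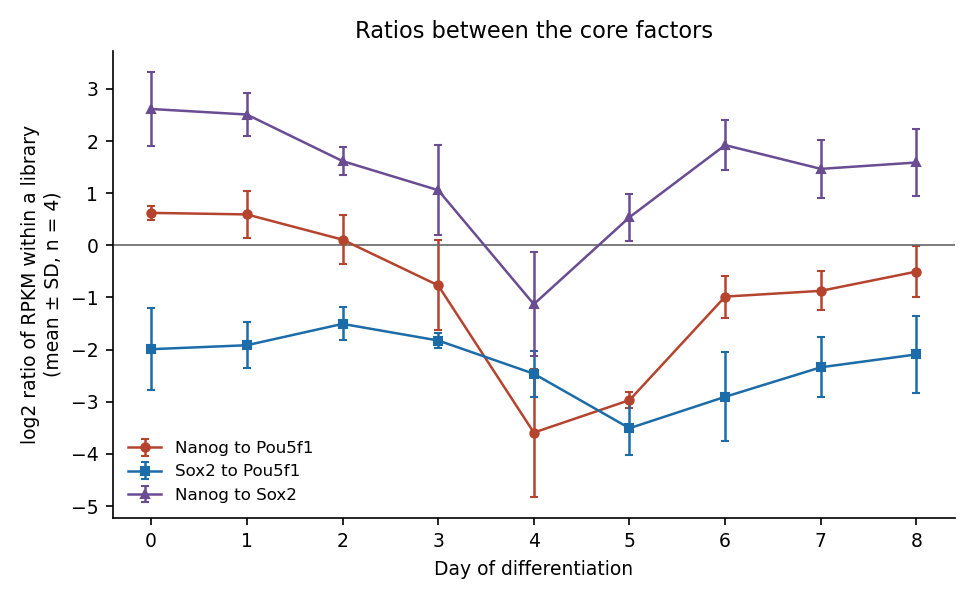
Log2 ratios of RPKM within a library against day of differentiation, as the mean with bars of 1 SD over the 4 libraries of a day, with red circles for Nanog to Pou5f1, blue squares for Sox2 to Pou5f1 and purple triangles for Nanog to Sox2. The ratios of Nanog to Pou5f1 and of Nanog to Sox2 were lowest on day 4 and had risen by day 6. The ratio of Sox2 to Pou5f1 was lowest on day 5 and had returned to its level of day 0 by day 8.

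The label difference of Nanog changed over the course. On days 1 to 4 it was higher in the double library in 8 of 8 pairs of a day and line. The log2 difference in X14 was 1.06, 1.04, 1.62 and 2.41 on these days and in X18 it was 0.53, 0.61, 1.51 and 1.99. It was 0.58 and 0.60 on day 5 and 0.21 and 0.11 on day 6. On day 7 it was -0.84 and -0.81 and on day 8 -1.47 and -1.91, so that Nanog was lower in the double library in 4 of 4 pairs of these days. On day 0 the lines disagreed, with -0.77 in X14, the pair that went against the others in X-linked genes, and 0.46 in X18.

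The label difference of Nanog on days 1 to 4 was 2.54-fold (log2 difference 1.35, SE 0.22, adjusted p = 1.1e-04, limma with day and line), when 7.17% of genes were called. On days 5 to 8 it was -0.44 (adjusted p = 0.225), when 5.24% of genes were called. The test of the change between these periods gave -1.79 (SE 0.31, adjusted p = 0.00115), and 2.62% of genes were called. Without replicate 2 (all libraries of X14 single) this was -1.65 with an adjusted p of 0.0550, and over all alternatives its adjusted p ran from 7.3e-04 to 0.055. Over all days the label difference of Nanog was 0.39 (adjusted p = 0.218, 0.45 and 0.151 without day 0), and 2.99% of genes were called. Libraries of successive days come from the same line and label, so these p-values are too small to the extent that such libraries are correlated.

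Pou5f1 and Sox2 were not called between labels. In X14 the log2 difference of Sox2 on days 1 to 8 was 0.07, 0.43, 0.08, 0.47, -0.10, 1.196, 0.53 and -0.67. In X18 it was 0.45, 0.42, 0.12, 0.83, 0.69, 0.72, -0.67 and -0.69. Sox2 was higher in the double library in 8 of 8 pairs on days 1 to 4, by 0.36 log2 units on average (SE 0.17, adjusted p = 0.196), and lower in 3 of 4 on days 7 and 8. Of Pou5f1 the difference on days 1 to 5 lay between -0.02 and 0.63 in both lines, and on day 6 it was -0.75 in X14 and 0.0048 in X18. Pou5f1 was lower in the double library in 4 of 4 pairs on days 7 and 8, and on day 8 by -1.48 in X14 and -1.17 in X18. Over all days the label differences were 0.20 (adjusted p = 0.273) for Sox2 and -0.15 (adjusted p = 0.455) for Pou5f1, and without day 0 they were 0.24 and -0.14. Their changes between periods were -0.23 (95% interval -0.72 to 0.25) for Sox2 and -0.52 (-1.01 to -0.04, adjusted p = 0.305) for Pou5f1. Other markers moved with the label too. On day 4 the naive markers summed to 796 to 886 RPM in double and 367 to 573 RPM in single libraries, and the formative and primed markers to 1655 to 1721 RPM and 2768 to 3423 RPM. On day 8 naive markers summed to 232 to 273 RPM in double and 143 to 156 RPM in single libraries, while Nanog was lower in double. Trophoblast markers then summed to 462 to 573 RPM in double and 269 to 302 RPM in single libraries. The part of these in the label difference of Nanog was not tested.

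**Figure D4:**
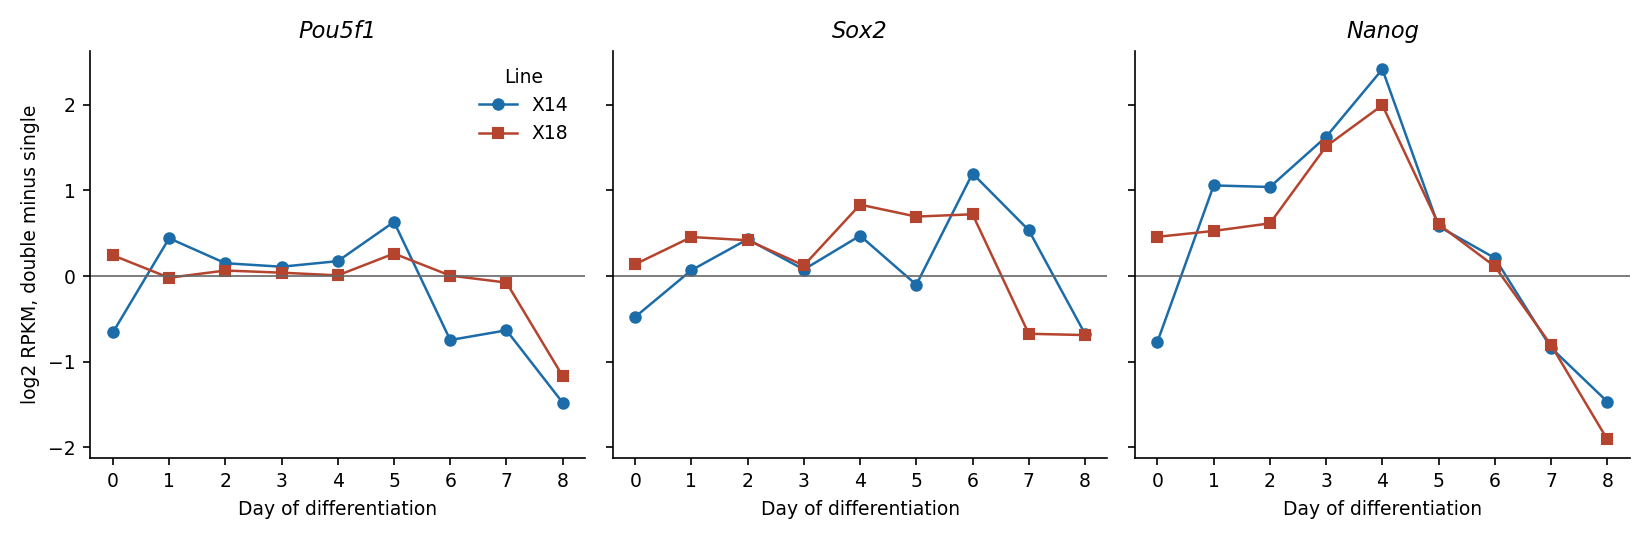
Log2 RPKM of the double minus the single library of the same day and line, against day of differentiation, with blue circles for line X14 and red squares for X18 and 1 panel per gene. For Nanog both lines rose to 2.41 and 1.99 on day 4, crossed 0 between days 6 and 7 and reached -1.47 and -1.91 on day 8.

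Each line alone, without day 0, gave a label difference over days 1 to 8 for Nanog of 0.58 in X14 (adjusted p = 0.286) and 0.33 in X18 (adjusted p = 0.570), neither called, with early and late days of opposite sign in both.

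Between the lines no member was called. Pou5f1 was higher in X18 in 14 of 18 pairs of a day and label, by 0.26 log2 units (SE 0.12, adjusted p = 0.266), and 0.0137% of genes were called. Sox2 was lower in X18 in 15 of 18 pairs (-0.15, adjusted p = 0.489), and Nanog was at 0.09 (adjusted p = 0.846). A change of the line difference between days 1 to 4 and days 5 to 8 was called for 0 genes by limma, with 544 at an unadjusted p under 0.05.

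The factors that work with the core in naive cells were mostly lower by day 4, as Nanog was. Of 13 core partners, 10 were called lower and 1 higher on day 4, when Pou5f1 was at 0.01, and 11 were called lower and none higher on day 8. Over all genes tested, 6.4% were called lower and 12.2% higher on day 4, and 11.1% lower and 23.9% higher on day 8. The list had a median log2 change of -3.18 on day 4 and -3.02 on day 8. Of its genes, Zfp42, Esrrb, Tfcp2l1 and Klf4 are also among the naive markers counted above. Nr5a2, a nuclear receptor that acts on the Pou5f1 promoter, went from 15.6 ± 5.22 RPKM on day 0 to 1.02 ± 0.74 on day 4 and 0.36 ± 0.31 on day 8 (SD, n = 4, log2 change on day 8 -5.72, adjusted p = 5.8e-09). Nr0b1, a repressor that binds OCT4, went from 62.8 ± 24.9 RPKM on day 0 to 5.74 ± 1.19 RPKM on day 4 and had at most 2 reads in any library of day 8. Of the 13, Sall4 was not called on either day, at 0.33 (adjusted p = 0.426) on day 8.

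Targets of OCT4 and SOX2 did not move as 1 group. Of 10, 3 were called higher and 2 lower on day 4 (median log2 change 0.44), and 2 higher and 6 lower on day 8 (median -2.38). Of all genes tested, 12.2% were called higher and 6.4% lower on day 4, and 23.9% higher and 11.1% lower on day 8. The count called higher on day 8 was near that share. Fgf4, the growth factor whose enhancer is a classical site of OCT4 and SOX2, was at 81.4 ± 26.7 RPKM on day 0 and 99.7 ± 8.35 RPKM on day 4 (log2 change 0.35, adjusted p = 0.319). It was at 3.23 ± 1.33 RPKM on day 8 (-4.67, adjusted p = 2.9e-16). Spp1, which encodes osteopontin, went from 808 ± 145 to 122 ± 20.1 and then 11.995 ± 6.38 RPKM (-6.22 on day 8, adjusted p = 6.7e-19). Utf1, a chromatin factor of pluripotent cells, went from 34.0 ± 18.3 to 320.4 ± 70.4 and then 66.1 ± 17.5 RPKM, and was called higher on both days (3.38 and 1.09). Lin28a, an RNA-binding protein that blocks let-7 maturation, went from 10.9 ± 9.11 to 157 ± 38.1 and then 88.1 ± 40.2 RPKM (4.33 and 3.41).

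Several genes known to repress Pou5f1 or Nanog were called higher. Of 11, Nr2f1 had no read on days 0, 4 or 8. Of the 10 tested, 7 were called higher on day 4 and 5 on day 8, and none was called lower. The median log2 changes of the 10 were 1.15 and 1.04, and without replicate 3 the count on day 4 was 4. Of all genes tested, 12.2% were called higher and 6.4% lower on day 4, and 23.9% higher and 11.1% lower on day 8. The lack of lower calls among 10 genes is near those shares. Nr2f6, a nuclear receptor, went from 1.68 ± 1.54 to 5.28 ± 2.95 and then 15.4 ± 6.54 RPKM (3.61 on day 8, adjusted p = 6.0e-07). Nr2f2 had no read on days 0 and 4 and 2.14 ± 0.96 RPKM on day 8, at least 4.94-fold higher than a floor of 3 reads in each library of day 0. Dnmt3b, a de novo DNA methyltransferase, had a log2 change of 5.29 on day 4 and 2.45 on day 8. It is also among the formative and primed markers counted above.

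Lineage factors that the core is known to hold back were low on day 4. Of 8, none was called on day 4, when 12.2% of all genes were called higher, and 3 were called higher on day 8, when 23.9% were. All 8 are also among the markers counted above. In these comparisons 6 of the 8 were at the read floor on day 4 and 4 on day 8. This means at most 3 reads in any library of at least 1 of the days compared. Depth thus limited what could be called on day 4. The median log2 change on day 8 was 1.11 (1.08 with genes at the read floor set to their bound). After scaling to the 75th percentile or quantile normalization 1 was called on day 4, and also without replicate 2. T, a mesoderm regulator, had at most 2 reads in any library of days 0 and 4 and was at 32.6 ± 32.4 RPKM on day 8, an SD close to the mean. Hand1 had no read on day 0 and was at 28.6 ± 19.4 RPKM on day 8, at least 27.1-fold higher than the floor. Cdx2, a trophoblast regulator that OCT4 represses, was called higher on day 8 at 3.31 RPKM, after at most 2 reads in any library of day 0 and none on day 4. Pax6, a neural regulator, was not called on either day.

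Relatives of the members by protein domain were mostly low. Of these, Pou3f1, Sox1, Sox3 and Sox17 are also among the markers counted above. Of 14 other POU genes, 8 were tested, with 2 called higher and 1 lower on day 4 and 1 each way on day 8, against the same shares of all genes as given for the core partners. Pou3f1, which encodes OCT6 and marks formative cells, went from 0.66 ± 0.29 RPKM on day 0 to 69.4 ± 30.6 on day 4 and 13.9 ± 6.02 RPKM on day 8 (log2 changes 6.77 and 4.43). On day 4 Pou3f1 was thus below Pou5f1 (534 ± 54.0 RPKM) per exon length. Pou4f1, a factor of sensory neurons, was called lower but had at most 7 reads in any library of days 0 and 4 and 1 on day 8. Of 18 other SOX genes, 14 were tested, with 3 called higher and 1 lower on both days, against 12.2% and 6.4% of all genes on day 4 and 23.9% and 11.1% on day 8, so the count on day 8 is near that background. Sox4 went from 1.56 ± 1.14 to 17.3 ± 6.56 and 14.3 ± 4.11 RPKM (3.49 on day 8, adjusted p = 2.3e-05). Sox11 went from 1.43 ± 1.22 to 10.5 ± 4.13 and 5.66 ± 3.88 RPKM (2.12, adjusted p = 6.3e-04). Both are SOXC factors of progenitor cells, and on day 8 the mean level of Sox4 (14.3 RPKM) was near that of Sox2 (19.7 ± 5.63 RPKM). Sox21 was called lower, with at most 18 reads in any library of day 0 and 3 on day 8. With genes at the read floor set to their bound, the median log2 change of the SOX genes was 0 on both days.

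**Figure D5:**
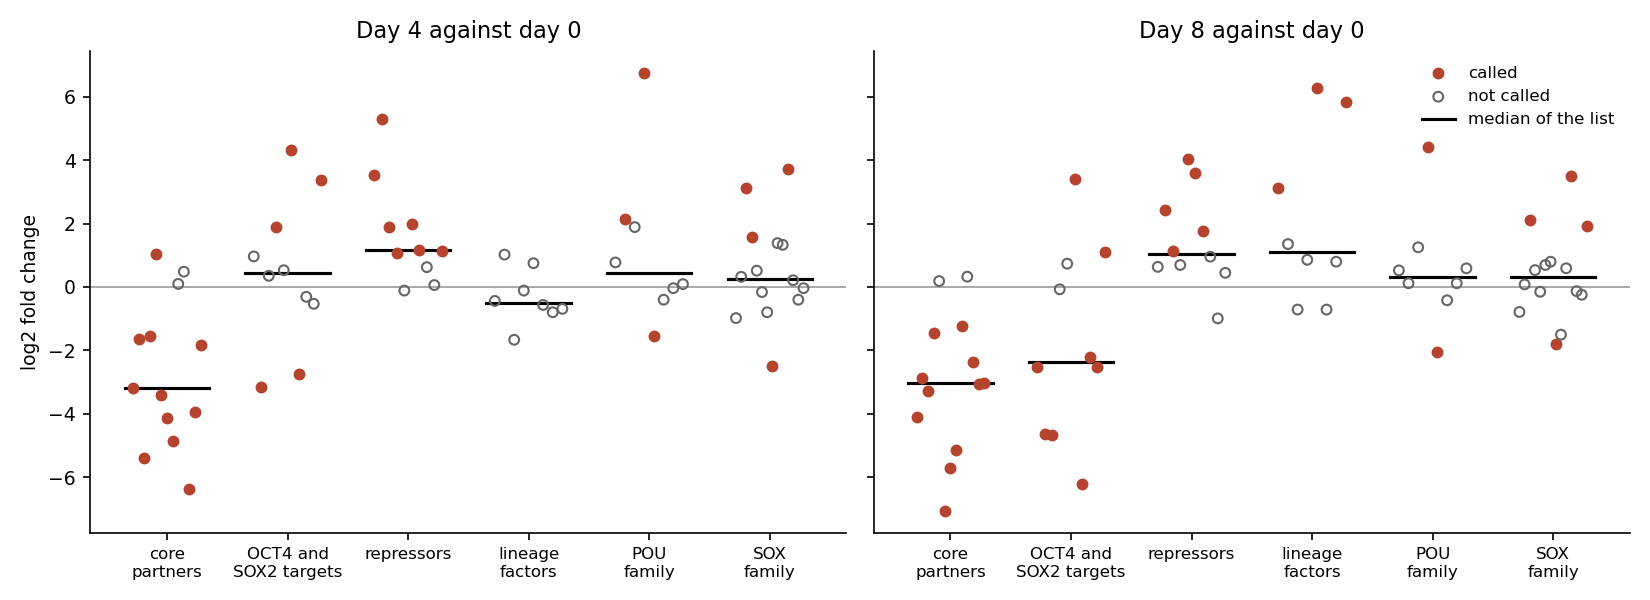
Log2 fold change against day 0 of each tested gene of 6 lists, on day 4 (left) and day 8 (right), with filled red points for genes called, open points for genes not called and a black line at the median of the list. The medians of the core partners were -3.18 and -3.02, and that of the OCT4 and SOX2 targets went from 0.44 to -2.38.

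The genes whose log2 levels ran most like a member over the 36 libraries were found among 9403 tested genes whose mean was at least 10 RPM, as a description, since libraries share days and scaling. For Nanog they were Prdm14 (Pearson r = 0.915), a germline and naive-state regulator that was also on the list of core partners, Pramel7 (0.906), Impa1 (0.89997), Amt (0.896) and Med19 (0.896). Prdm14 went from 19.9 ± 9.18 RPKM on day 0 to 1.08 ± 1.06 on day 4 and 0.53 ± 0.12 RPKM on day 8. For Sox2 they were Kcnk5 (0.947), the mismatch repair gene Msh6 (0.944), Acp6 (0.940), Apobec3 (0.939) and Pfkp (0.937). Kcnk5 was at 21.6 ± 4.73, 17.7 ± 3.92 and 5.54 ± 2.30 RPKM on days 0, 4 and 8. For Pou5f1 they were its antisense gene Gm19553 (0.996), the serine synthesis gene Psat1 (0.934), Actr3b (0.931), Sap30 (0.923) and Pla2g1b (0.919). Psat1 was at 329 ± 98.4, 206 ± 38.4 and 37.8 ± 14.99 RPKM on days 0, 4 and 8. No gene was on more than 1 of these lists. Among the members r was 0.78 for Pou5f1 and Sox2, 0.74 for Sox2 and Nanog and 0.55 for Pou5f1 and Nanog. Many of the 9403 genes had a higher r with a member than the other members did. With Pou5f1 these were 225 genes above Sox2 and 1274 above Nanog. With Sox2 they were 419 above Pou5f1 and 611 above Nanog, and with Nanog 1123 above Pou5f1 and 244 above Sox2.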

How the data were processed

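Single-end RNA-seq of 75 bases covered 9 days of differentiation of Xmas mESCs with 4 libraries a day, 36 in all. Per the study's methods trim_galore trimmed the reads, tophat or hisat2 aligned them to mm10 and SeqMonk quantified them, and the submitters' processing notes name TopHat2 2.0.12. The annotation release and the strand of counting are not given in the sources used here. The submitters name the deposited values log CPM. Here they were read as log2 RPKM (log2 reads per 1000000 reads and per kilobase of merged exon), with 0 reads written as 0.9 read. With this, 100% of values resolved to whole reads (tolerance 0.02 read up to 500 reads, in proportion above), which gave depth and RPM. Of the recovered exon lengths that could be compared, 47.3% equalled those of a GENCODE annotation. Depth was 612740 to 2445826 reads in genes, and reads carry no molecular identifiers, so counting errors are minimal ones. Every value column matched a library by name, with 0 left over.

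Genes with at least 1 RPM in at least 4 libraries (14612) were tested on the deposited log2 values with limma 3.58.1 (lmFit, eBayes with trend) in R 4.3.3, with day as a factor. Label and line fits had day, line and label. All tests were two-sided. For the comparison of day 8 with day 0, data were simulated with independent noise, the same SD of a gene on every day and no label or line differences. Changes of 3 log2 units were called in 96% and changes of 1.5 in 52% of cases, with 7 false calls among the unchanged genes. The spread of the real libraries was uneven, so these rates need not hold for them. Ratios were tested with exact permutation in scipy 1.17.1. Same-numbered libraries come from the same line and label, and deviations from the day mean correlated between days at a median of 0.15 for the same number and -0.07 for different numbers. The lowest chi-square per gene between libraries of a day was 1.23, so no library was taken as deposited more than once within a day. Libraries of different days were not compared in this way. Alternatives were other scalings, filters, log2(RPM + 1), voom on recovered reads, a replicate block, only the days compared, and leaving out each replicate number. Leaving out replicates in the label and line fits, single lines without day 0, crossing days from day 1 alone, and the list counts under log2(RPM + 1), voom, block and left-out replicates were chosen after seeing the data.

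Named genes were the 3 members, per list the largest called changes on day 8 (up to 2 each way), and the 5 genes most correlated with each member. Sall4, Dnmt3b, Cdx2 and Pax6 were named after their values were seen. Members, lists and markers were chosen with earlier results of these data known. The lists were written from general knowledge of the field, and their counts support nothing beyond description.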

Additional observations from a re-analysis of the deposited data

Results flagged for a closer look

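The label difference of Nanog (double minus single) changed between early and late days. It was 1.35 log2 units on days 1 to 4 (adjusted p = 1.1e-04) and -0.44 on days 5 to 8 (adjusted p = 0.225, not called). The test of the change of the label difference from days 1 to 4 to days 5 to 8 gave -1.79 log2 units (SE 0.31, limma adjusted p = 0.00115), with double higher in 8 of 8 pairs early and in 4 of 8 late. Without replicate 2 the change between periods had an adjusted p of 0.0550. Libraries of successive days come from the same line and label, and the part of that in this p was not tested.

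Sox2 on day 1 had 1 library far from the other 3, at 124 RPKM in X18 single against 163 to 171 RPKM. Of 27 groups of 4 libraries examined in this way (3 genes on 9 days) chance gives about 1 in 20.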

How the results depend on the processing

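No called change of a member reversed under any alternative, and 1011 of 1053 alternative values kept direction and side of the threshold. The 26 reversals were of differences that had not passed the test. The replicate block changed no call other than that of Nanog on day 3. Nanog on day 3 against day 0 was -1.39 after scaling to the 75th percentile, -1.28 with the replicate block, with voom and where a mean of 10 RPM was required, all past the threshold (adjusted p 0.0487, 0.0463, 0.0272 and 0.0499). Leaving out replicates in turn gave -1.70 to -0.90. For Nanog from day 5 to 6 this range was 1.41 to 1.73 and for its label by period -1.92 to -1.65. Pou5f1 from day 7 to 8 was -1.18 after quantile normalization, past the threshold. The causes were not tested.

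With quantile normalization the line difference of Nanog was -0.14, line by period was 0.050 for Nanog and 0.13 for Pou5f1, and Pou5f1 from day 1 to 2 was 0.17. With 75th percentile scaling Pou5f1 was -0.089 on day 2 and -0.10 on day 4. Leaving out replicates in turn moved uncalled changes from day 0 across 0: Nanog on day 1 (-0.24 to 0.37) and Pou5f1 on day 1 (-0.029 to 0.34), day 2 (-0.11 to 0.16), day 3 (-0.068 to 0.20) and day 4 (-0.16 to 0.11). It did so for Nanog from day 4 to 5 (-0.24 to 0.57), Sox2 from day 5 to 6 (-0.030 to 0.40) and the label difference of Sox2 on days 5 to 8 (-0.015 to 0.27). Line by period ran from -1.10 to 0.81 for Nanog, -0.48 to 0.29 for Pou5f1 and -0.021 to 0.42 for Sox2. Log2 ratios against day 0 ran from -0.21 to 0.086 (Nanog to Pou5f1, day 1), -0.50 to 0.11 (Nanog to Sox2, day 1), -0.14 to 0.29, -0.047 to 0.38 and -0.24 to 0.048 (Sox2 to Pou5f1, days 1, 3 and 8). With a mean of at least 10 RPM, which tests fewer genes, 1 POU gene was called on days 4 and 8 and 2 SOX genes on day 8. Of the lineage factors, 1 was called on day 4 under both scalings and 0 to 1 without a replicate, and of the repressors 4 to 8. The label fit contains line and label, so it has no other replicate block. Sox2 on day 8 rested on 39 to 133 reads per library, and genes of the lists with at most 3 reads a library were at the limit of depth.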
